A study of Mus musculus with 34 samples.

Results

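The 9 genes Nanog, Pou5f1, Sox2, Esrrb, Zfp42, Tfcp2l1, Prdm14, Nr0b1 and Mycn code for transcription factors of the mouse pluripotent state. They were taken by symbol from the nearest-gene column of the deposited peak tables, which list Tfcp2l1 under its RefSeq synonym Tcfcp2l1. The tables give no gene coordinates. Each gene was therefore placed at the point on which the summits and distances of its peaks agreed, and 15984 gene names had such a point, 8 of the 9 members among them. Nr0b1 was put at the summit of its closest peak. Peaks of a list were counted for a gene when their midpoint lay within 100 kb of its point, called its territory here.

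The proteins were profiled by chromatin immunoprecipitation against a FLAG tag, a short peptide fused to the protein of interest, followed by sequencing. SMARCA4, which hydrolyses ATP to move nucleosomes within the SWI/SNF (BAF) complex, was profiled in embryonic stem cells (ESC) and, in embryos of day 11.5, in heart, limb, face, neural tube and 3 brain regions (forebrain, midbrain and hindbrain). EP300, a histone acetyltransferase found at enhancers, was profiled in ESC and face, SMARCC2, a further subunit of BAF, in hindbrain and face, and NCOA1 and NCOA2, coactivators of nuclear receptors, in hindbrain. Histone marks were profiled in limb and forebrain of CD1 embryos of the same day. FLAG samples and their input controls came from 129/C57BL/6 mice, were pooled from both sexes, and carry a genotype tag of SMARCA4/FLAG knock-in even where the immunoprecipitated protein was another one. Embryonic tissue was pooled from about 150 or about 300 embryos, and the SMARCA4 ESC description also speaks of pooled embryos. The SMARCA4 hindbrain sample has a tissue tag of forebrain and was kept as hindbrain after its title. Each condition had 1 library, so there was no replicate check and no test, and intervals below cover counting error only.

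Pluripotent cells of the early embryo can form every tissue of the body, and ESC keep this state in culture. POU5F1, SOX2 and NANOG occupy enhancers together and maintain their own genes and one another's. ESRRB, TFCP2L1, PRDM14 and NR0B1 are part of the same network in the naive state of mouse ESC, and Zfp42 (Rex1) is one of its customary markers. A BAF complex built around SMARCA4 is required for the self-renewal of mouse ESC. Sox2 and Mycn are also used later in development, in neural and other progenitors, whereas most of the other genes are shut off in somatic tissue.

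Nanog, Zfp42 and Tfcp2l1 were the 3 members with a SMARCA4 ESC peak within 1 kb of the gene point, and the sequence before their transcription starts shows what kind of promoter the peaks lie next to. The 250 bases upstream of a start are given 5' to 3' on the gene's strand (RefSeq, assembly GRCm38.p6, chromosomes 6, 8 and 1). Nanog has 2 RefSeq starts, and the window and distances given are those of the first one listed. Capitals mark matches to parts of binding motifs.
Nanog: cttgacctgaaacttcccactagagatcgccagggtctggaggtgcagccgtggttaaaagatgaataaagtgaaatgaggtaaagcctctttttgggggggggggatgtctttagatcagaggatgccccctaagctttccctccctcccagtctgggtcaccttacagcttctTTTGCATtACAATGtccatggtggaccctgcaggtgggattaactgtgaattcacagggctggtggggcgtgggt
Zfp42: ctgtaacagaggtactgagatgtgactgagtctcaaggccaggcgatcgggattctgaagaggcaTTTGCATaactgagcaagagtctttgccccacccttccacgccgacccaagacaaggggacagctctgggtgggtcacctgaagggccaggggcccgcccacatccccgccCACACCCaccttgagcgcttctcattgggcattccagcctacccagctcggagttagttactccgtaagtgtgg
Tfcp2l1: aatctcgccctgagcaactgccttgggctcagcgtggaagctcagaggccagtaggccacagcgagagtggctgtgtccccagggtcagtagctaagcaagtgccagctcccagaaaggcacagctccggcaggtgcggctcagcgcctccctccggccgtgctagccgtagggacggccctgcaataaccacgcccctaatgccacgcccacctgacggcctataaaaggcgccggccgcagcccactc
In Nanog the capitals are TTTGCAT, the reverse complement of the POU octamer part ATGCAAA, and ACAATG, the reverse complement of the SOX motif CATTGT. They lie 75 to 69 and 67 to 62 bases before the start, 1 base apart, in the order of the composite element that POU5F1 and SOX2 bind together. Zfp42 has the same octamer part 185 to 179 bases before the start and the KLF motif GGGTGTG, read as CACACCC, 74 to 68 bases before it. None of these motifs, nor the ESRRB half-site AAGGTCA, matched in the Tfcp2l1 window. Both strands were searched and no matches overlapped. Of 32851 promoters of this length, 4.12% held the octamer part, 10.7% the SOX motif, 6.93% the KLF motif and 4.08% the ESRRB half-site. Among the 11 promoters of the 8 members in the RefSeq table, the octamer part was in 4 (of Nanog, Sox2 and Zfp42), the SOX motif in 3 (of Nanog and Pou5f1), the KLF motif in 3 (of Esrrb, Mycn and Zfp42) and the ESRRB half-site in 0. A match describes the letters and is not evidence of binding. The peaks are given below in mm9, and no overlap between these windows and the peaks was worked out.

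The 9 territories held more SMARCA4 ESC peaks than those of other genes. They held 25 of the 6764 peaks of that list, a mean of 2.78 per gene against 1.08 over all placed genes, which is 2.57 times as many. In the 7 embryonic SMARCA4 lists the members stood below the mean of all genes, at 0.357 times in hindbrain to 0.804 times in forebrain. The EP300 ESC list held 14 of its 10356 peaks there, 0.790 times the mean of all genes.

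**Figure D1:**
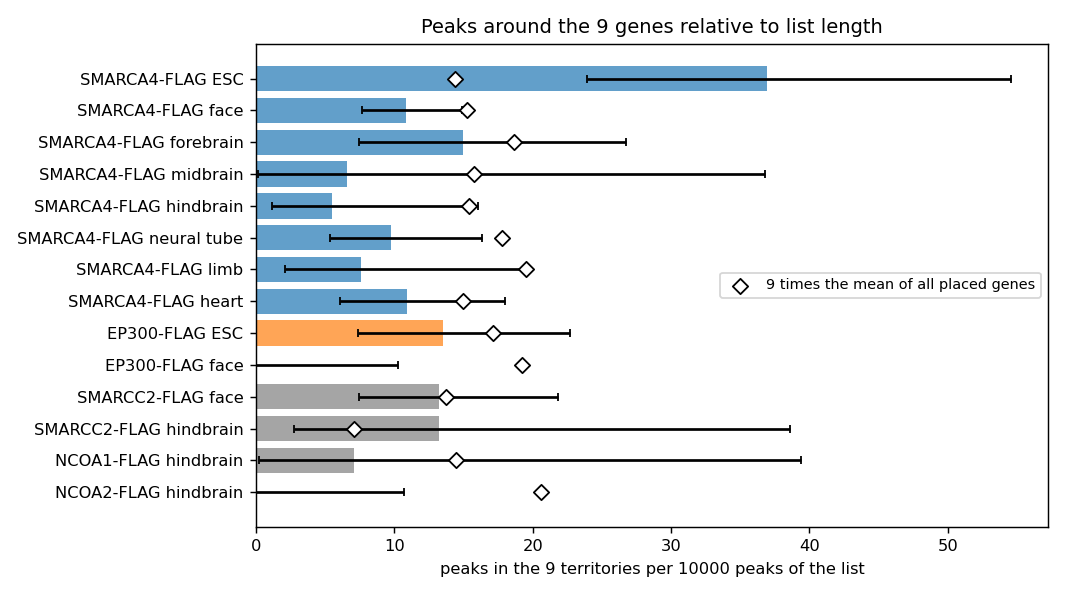
Peaks in the 9 territories per 10000 peaks of each FLAG list (bars, with exact 95% Poisson intervals for counting error), beside 9 times the mean of all placed genes on the same scale (diamonds). SMARCA4 ESC reached 37.0 per 10000 with its whole interval to the right of its diamond, while the bars of the 7 embryonic SMARCA4 lists lie between 5.49 and 15.0, left of theirs. Among those 7, only the intervals of face and neural tube lie wholly left of their diamonds.

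Per 10000 peaks of the list, the members held 37.0 SMARCA4 peaks in ESC (95% Poisson interval 23.9 to 54.6). They held 15.0 in forebrain, 10.9 in heart, 10.8 in face, 9.75 in neural tube, 7.62 in limb, 6.61 in midbrain and 5.49 in hindbrain. ESC thus stood highest, and the embryonic tissues had overlapping intervals among themselves. The ratio of ESC to face was 3.41 (95% interval from the binomial split of the peaks, 1.98 to 5.80), and to neural tube 3.79 (1.90 to 7.89). To heart it was 3.39 (1.72 to 6.91) and to forebrain 2.47 (1.17 to 5.56). The small lists gave wide intervals, with 6.73 (2.05 to 34.8) for hindbrain, 4.85 (1.68 to 19.2) for limb and 5.59 (0.915 to 229.6) for midbrain, whose interval includes 1. Nanog alone carried 9 of the 25 peaks. Without it the ratio to forebrain was 1.93 (0.804 to 4.96), and those to face, heart, neural tube, limb and hindbrain ranged from 2.68 to 6.46 with intervals above 1. Without peaks that lay over a control or input region, the ratio to forebrain was 1.17 (0.437 to 3.95) and that to limb 2.63 (0.427 to 108.3), so that both intervals included 1. The midbrain ratio was then 3.85 (0.625 to 158.6), and those to face, heart, neural tube and hindbrain ranged from 2.95 to 9.69 with intervals above 1. The interval for forebrain also included 1 with territories of 50 kb, at 2.31 (0.944 to 6.18). Nanog was not the only member on which it depended. Without Tfcp2l1 the ratio to forebrain was 2.07 with a lower end of 0.956, and without Mycn 2.17 with a lower end of 0.971.

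At least 1 SMARCA4 ESC peak was found for 7 of the 9 members, against 61.1% of all placed genes, and at least 3 for 3 members, against 12%. A gene has a point only where at least 2 peaks of the study agree on it, so the background holds genes near peaks. Pou5f1 was placed by its 2 SMARCA4 ESC peaks alone, so its place in this count was fixed by the placement. Zfp42 was also placed by only 2 peaks. At least 1 SMARCA4 peak was found for 7 members in face (98% of all genes), 7 in neural tube (90%), 7 in heart (74.4%) and 5 in forebrain (71.5%). It was found for 3 members in hindbrain (58.8%), 3 in limb (63.2%) and 1 in midbrain (19.7%). The number of genes with any peak therefore set ESC apart less than the number of peaks per gene did.

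**Figure D2:**
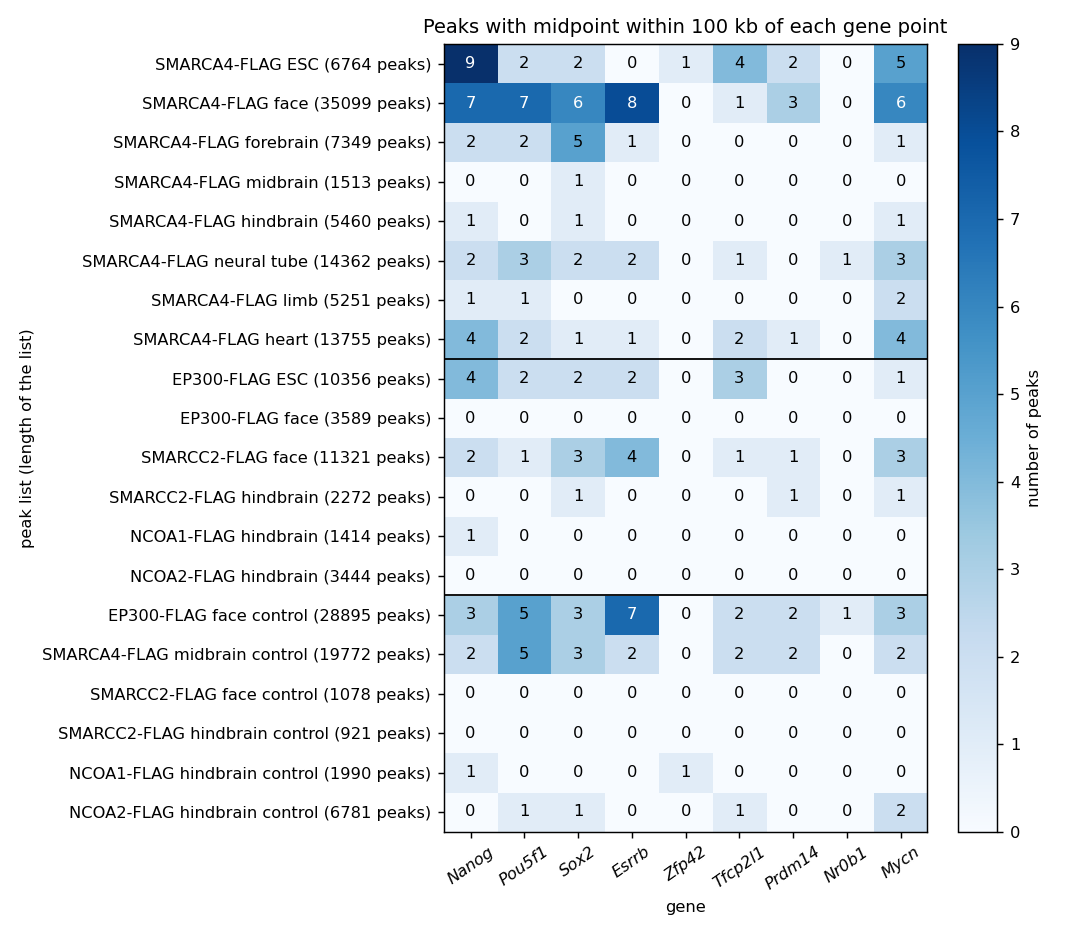
Number of peaks within 100 kb of each gene point, for SMARCA4 lists (top block), other FLAG lists (middle) and control lists (bottom), with list lengths in brackets. Nanog has the highest count in the ESC row, 9, while Esrrb has 8 peaks in SMARCA4 face and 0 in SMARCA4 ESC.

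Nanog, a homeodomain protein that stabilises the pluripotent state, had the most SMARCA4 ESC peaks, 9 (95% Poisson interval 4.12 to 17.1). Mycn, a MYC family factor linked to proliferation, had 5 (1.62 to 11.7), and Tfcp2l1, a grainyhead-like factor of naive ESC, had 4 (1.09 to 10.2). Pou5f1, Sox2 and Prdm14 had 2 each and Zfp42 had 1, while Esrrb and Nr0b1 had 0, a count that allows up to 3. Neighbours in this order have overlapping intervals. Of the ends of the order, the interval of Nanog lies above the 3 peaks that a count of 0 allows.

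A member was called higher in ESC where its SMARCA4 ESC peaks per 10000 list peaks were at least 2 times those of every embryonic SMARCA4 list. Nanog, Zfp42, Tfcp2l1 and Prdm14 met this, 4 of 9 members, against 4.44% of all placed genes. Nanog had 13.3 per 10000 in ESC and 2.91 in heart, the highest embryonic list. Tfcp2l1 had 5.91 in ESC and 1.45 in heart, and Prdm14, a PR domain protein that represses differentiation signals, had 2.96 in ESC and 0.855 in face. Zfp42 had 0 peaks in all 7 embryonic SMARCA4 lists, so its call rests on 1 peak. Mycn just missed the rule with 7.39 in ESC and 3.81 in limb, and Pou5f1 had 2.96 in ESC and 2.72 in forebrain. Sox2 went the other way, with 2.96 in ESC and 6.80 in forebrain, where 4 of its 5 peaks lay over control regions. With territories of 50 kb, 5 members met the rule (5.69% of all genes), and with territories of 200 kb only 1 did (2.88%).

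Around Nanog the SMARCA4 ESC peaks lay between -98.8 and 63.3 kb, and the strongest lay in a group downstream of the gene. In the following, a position is the distance of the peak midpoint from the gene point, negative for upstream, and a tag is a sequenced fragment counted in the peak by the authors. The peak nearest the gene lay at -0.372 kb (mm9 chr6:122657021-122657400) with 25 tags, and no embryonic SMARCA4 list had a peak over it. In heart the closest SMARCA4 peak lay at -4.65 kb and in face at -5.03 kb. Upstream, SMARCA4 ESC peaks at -44.8, -83.1 and -98.8 kb had 15, 16 and 11 tags, and Dppa3 or Gdf3, further genes of pluripotent cells, was the authors' nearest gene to them. Downstream, 4 peaks at 55.4, 57.5, 59.8 and 63.3 kb had 28, 50, 25 and 22 tags, and their nearest gene was Slc2a3, which codes for a glucose transporter. The peak at 57.5 kb (chr6:122714803-122715357) had the highest score of the Nanog territory, 129, where the score is the authors' -10 log10 p. It also lay over an EP300 ESC peak, over SMARCA4 peaks of 4 embryonic tissues and over 2 control lists. The group was therefore partly shared with embryonic tissue, whereas the peak at the gene was not.

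**Figure D3:**
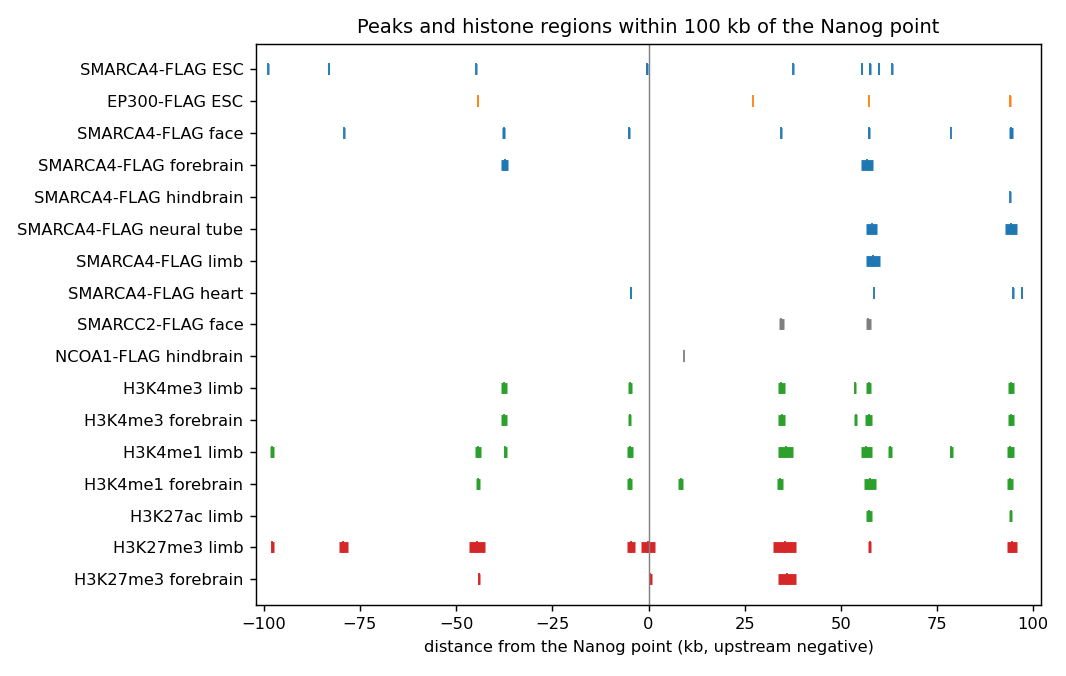
Peaks and histone mark regions by distance from the Nanog point in kb (each bar spans a region, each tick its midpoint). The SMARCA4 ESC row has a peak beside the point at -0.372 kb and a group of 4 between 55.4 and 63.3 kb, and the limb H3K27me3 row has a region over the point.

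Pou5f1 (Oct4), a POU domain factor without which no pluripotent cells form, had its stronger SMARCA4 ESC peak at -1.77 kb (chr17:35641044-35641387), with 32 tags and a score of 115. The stretch just upstream of Pou5f1 is known to hold its enhancers. A SMARCA4 face peak at -1.89 kb overlapped it, and SMARCA4 peaks of the other 6 embryonic tissues did not. The second ESC peak, at -15.7 kb, had 11 tags. Both had Pou5f1 as the authors' nearest gene, although 4 further placed genes lie in the territory.

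Sox2, an HMG box factor of ESC and of the neural lineage, had SMARCA4 ESC peaks at -3.46 kb with 18 tags and at 18.3 kb with 35 tags. Neither overlapped an embryonic SMARCA4 peak. SMARCA4 peaks in this territory numbered 6 in face, 5 in forebrain, 2 in neural tube and 1 each in heart, hindbrain and midbrain. The forebrain peak over the Sox2 point (at -0.326 kb) was placed 96 of 7349 in its list and lay over 2 control lists. Sox2 was also the single member with a SMARCA4 midbrain peak, at -74.9 kb, to which the authors' nearest gene was BC057611. The heart peak and the 2 neural tube peaks each lay over 2 control lists. SMARCA4 peaks were thus listed around Sox2 in ESC and in every embryonic tissue except limb, at positions that did not overlap those of ESC. In heart and neural tube all of them lay over control regions.

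Tfcp2l1 had its strongest SMARCA4 ESC peak inside its downstream territory, at 15.2 kb (chr1:120539462-120540014), with 47 tags and a score of 154, number 227 of 6764 in the list. A neighbour at 19.9 kb had 21 tags, and neither overlapped a peak of any embryonic FLAG list. Peaks at -2.04 and -0.286 kb had 11 tags each. The one at -0.286 kb lay over SMARCA4 peaks of face and neural tube and over 2 controls. All 4 had Tfcp2l1 as nearest gene, and no other placed gene lies in the territory.

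Zfp42 had 1 SMARCA4 ESC peak, at -0.409 kb (chr8:44392636-44392910), with 17 tags and a score of 100.2. No FLAG list of an embryonic tissue had a peak in its territory. Prdm14 had a SMARCA4 ESC peak at 1.5 kb (chr1:13118554-13118935, position in chromosome direction) with 23 tags and one at 88.3 kb with 6 tags. Mycn had SMARCA4 ESC peaks of 24 to 27 tags at 31.2, 12.9 and -3.60 kb, and weaker ones of 8 and 10 tags at 99.5 and -46.8 kb. Of its 5 peaks, 2 lay over embryonic SMARCA4 peaks.

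Esrrb, an orphan nuclear receptor of the naive network, had 0 SMARCA4 ESC peaks, but its peaks agree on 3 points. The counts above use the first, supported by 8 peaks. Around the second, supported by 6, and the third, supported by 8, there were 4 SMARCA4 ESC peaks in each case. At 103.2, 115.4, 137.8 and 141.1 kb from the first point, these had 15, 27, 45 and 34 tags, and Esrrb was the authors' nearest gene to all 4. With the third point the members held 29 SMARCA4 ESC peaks in place of 25, and 5 of 9 met the rule for higher in ESC. All 4 peaks are among the 8 that place the third point, so their count there was not independent of the placement. The absence of peaks at Esrrb thus depends on the point chosen. Mycn likewise had 3 SMARCA4 ESC peaks beyond its territory, at 136.6, 151.8 and 156.5 kb, with 30, 55 and 18 tags.

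**Figure D4:**
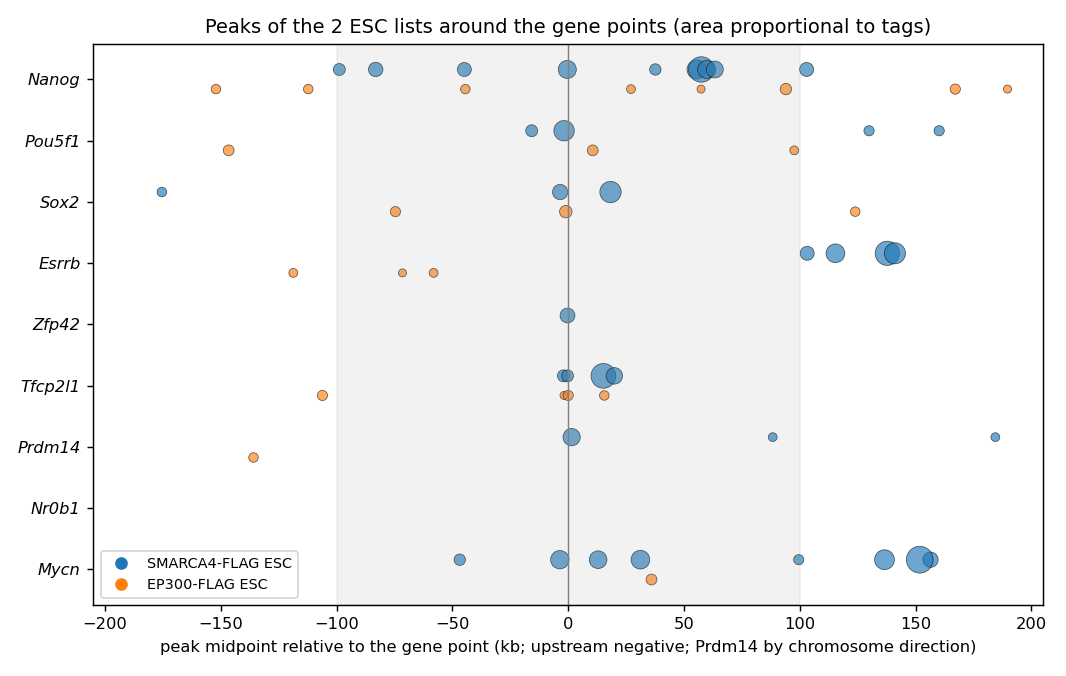
Midpoints of SMARCA4 (upper) and EP300 (lower) ESC peaks within 200 kb of each gene point, in kb, with circle area proportional to the tags in the peak and the 100 kb territory shaded. The SMARCA4 peaks of Esrrb lie between 103.2 and 141.1 kb, outside the territory, and Nr0b1 has no ESC peak in the range shown.

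Nr0b1 (Dax1), an orphan nuclear receptor on chromosome X, had no ESC peak of either protein within 200 kb. A single peak lay close enough to place it, and it was put at that peak's summit. The peak belongs to the EP300 face control list. A SMARCA4 neural tube peak at -0.329 kb was its one FLAG peak, and it also overlapped that control peak.

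The other coactivators differed in their counts around the members. SMARCC2 in face had 15, a mean of 0.963 times that of all genes, with at least 1 peak for 7 of 9 members (74.2% of all genes). The most were at Esrrb, with 4, among them peaks at 0.0510 and 3.25 kb that each lay over a SMARCA4 peak of 1 embryonic tissue and over no control. SMARCC2 in hindbrain had 1 peak each for Sox2, Prdm14 and Mycn, 3 of 9 members (16.3%), which is 1.87 times the mean of all genes on 3 peaks. NCOA1 had 1 peak, for Nanog at 9.29 kb (20.1% of all genes had at least 1), and NCOA2 had 0 (52.8%). Of the 6 control lists, those of EP300 face and SMARCA4 midbrain are long, with 28895 and 19772 regions, and held 26 and 18 regions in the 9 territories, 0.545 and 0.467 times the mean of all genes. The other 4 held 0 to 5. No list of a control sample of ESC was used here.

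EP300 ESC peaks were fewer around the members and mostly lay away from the SMARCA4 peaks. Nanog had 4, Tfcp2l1 had 3, Pou5f1, Sox2 and Esrrb had 2 each, Mycn had 1, and Zfp42, Prdm14 and Nr0b1 had 0. At least 1 was found for 6 members, against 82.9% of all placed genes, and at least 3 for 2 members, against 32.4%. Per 10000 list peaks the members held 2.73 times as many SMARCA4 as EP300 ESC peaks (95% interval 1.37 to 5.69). Without peaks over a control or input region the ratio was 1.95 (0.840 to 5.03), an interval that includes 1. Within 1 kb of the point, SMARCA4 ESC peaks were found for 3 members, against 5.92% of all genes, and EP300 ESC peaks for 1, Tfcp2l1, against 32.8%. The EP300 face list had 0 of its 3589 peaks in the 9 territories, where 52.5% of all genes had at least 1. With that count set to 3, the ratio of EP300 in ESC to face was 1.62, a value without an interval for counting error.

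The EP300 ESC peak with the highest score, 101.4, lay at -1.02 kb from the Sox2 point (chr3:34547821-34548001) and had 12 tags. It overlapped SMARCA4 peaks of face, forebrain and neural tube and 2 control lists, but no SMARCA4 ESC peak. For Nanog the EP300 peak of highest score lay at 94.0 kb with 10 tags, for Tfcp2l1 at 0.0230 kb with 8, and for Mycn at 35.7 kb with 9. All 3 lay over embryonic SMARCA4 peaks and over 2 control lists. For Esrrb it lay at -71.5 kb with 5 tags, and for Pou5f1 at 97.6 kb with 6, both over no other FLAG or control list. Over all 14 EP300 ESC peaks of the members, 6 lay over a control or input region (42.9%), against 60.0% of the whole list. Of the 25 SMARCA4 ESC peaks 2 did (8%), against 9.49%.

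SMARCA4 and EP300 met in ESC in the territories of Nanog and Tfcp2l1. A single pair overlapped, the peaks at 57.5 and 57.4 kb of Nanog, with midpoints 113 bp apart. At -44.8 and -44.4 kb of Nanog the midpoints were 436 bp apart without overlap. The authors' nearest gene was Slc2a3 for the overlapping pair and Dppa3 for the other, not Nanog. The EP300 peak of the overlapping pair had 5 tags and lay over 2 control lists. In Tfcp2l1 there were 3 pairs without overlap, 237 bp apart near -2.04 kb, 309 bp apart at the point and 383 bp apart near 15.2 kb. By overlap of at least 1 bp, 1 of 25 SMARCA4 ESC peaks lay over EP300 (4%, 95% Clopper-Pearson interval 0.101 to 20.4), against 3.03% of the whole list. By midpoints within 1 kb, 5 of 14 EP300 peaks had a SMARCA4 peak beside them (35.7%, 12.8 to 64.9), against 5.81% of the whole list. These 5 lie in the territories of 2 members. EP300 peaks held few tags, 5 to 12, and their median of 7 equalled that of the whole EP300 ESC list.

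The SMARCA4 ESC peaks of the members were broader and held more tags than usual for that list. Their median was 21 tags (range 6 to 50) against 9 for all 6764 peaks, and 13 of 25 (52.0%) had at least 20 tags against 11.9%. Their median width was 284 bp against 158 bp, and a wider peak holds more tags. The score differed less, with a median of 68.0 against 60.9, and 3 of 25 were in the top 10% of the list. Conservation scores above 0 were found for 13 of 25 (52.0%) against 64.9%, and 7 of 25 (28.0%) lay over an embryonic SMARCA4 peak against 31.7%. In these last respects the members' peaks did not stand out. The authors' nearest gene was the member for 17 of 25 SMARCA4 and 6 of 14 EP300 ESC peaks, and 17 and 11 lay over 10 kb from the point. Of the 13 ESC peaks around Nanog, 1 had Nanog as nearest gene.

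In embryonic limb, the points of 6 members lay inside regions of H3K27me3, the Polycomb mark of silenced genes. These were Nanog, Pou5f1, Sox2, Esrrb, Tfcp2l1 and Nr0b1, 6 of 9 against 22.6% of all placed points. The regions over Nanog and Pou5f1 were 3622 and 4229 bp long, and that over Sox2 was 39348 bp long and ranked 61 of 13137. Nr0b1 counts with its stand-in point, and 1 of the 2 other points that its peak allows falls just outside the region. In forebrain the one member inside such a region was Prdm14, 1 of 9 against 3.72%. The forebrain list thus covered fewer points of all genes as well. Nanog lay just outside a forebrain region, which began 0.076 kb downstream of its point. Counted over whole territories, H3K27me3 regions numbered 26 in limb and 20 in forebrain, 1.35 and 1.45 times the mean of all genes, and H3K27ac regions of limb numbered 8, 0.253 times that mean.

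**Figure D5:**
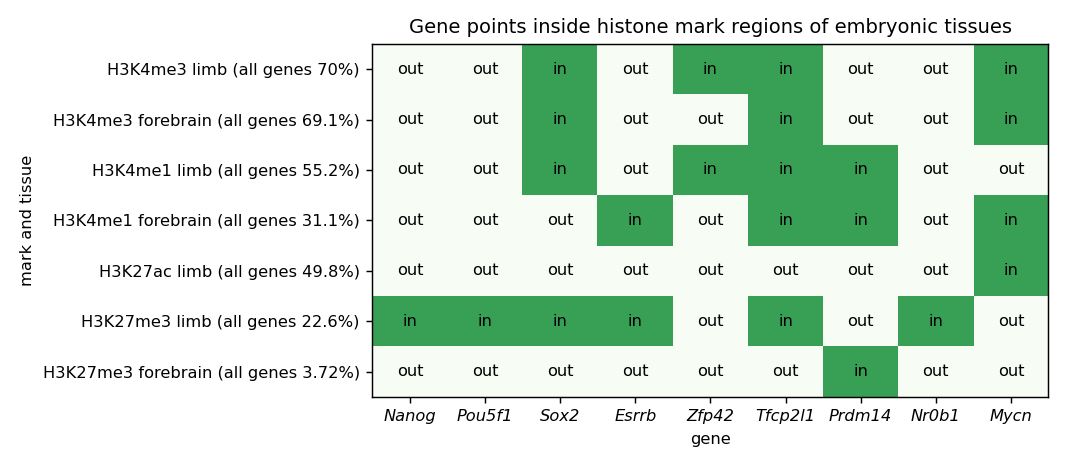
Whether each gene point lay inside a region of the histone mark (in, green) in limb or forebrain of day 11.5, with the percentage of all placed points inside beside each mark. Limb H3K27me3 covers 6 of the 9 points, and H3K4me3, found at most active or poised promoters, covers 4 in limb and 3 in forebrain.

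Marks of active starts covered few of the members. H3K4me3 covered the points of Sox2, Zfp42, Tfcp2l1 and Mycn in limb, 4 of 9 against 70% of all points, and those of Sox2, Tfcp2l1 and Mycn in forebrain, 3 of 9 against 69.1%. H3K27ac, a mark of active promoters and enhancers, covered Mycn alone in limb, 1 of 9 against 49.8%. H3K4me1, which marks enhancers and promoter flanks, covered 4 of 9 in limb (55.2% of all points) and 4 of 9 in forebrain (31.1%). Nanog, Pou5f1 and Nr0b1 lay outside all 5 lists of H3K4me3, H3K4me1 and H3K27ac. Sox2 and Tfcp2l1 lay in both H3K4me3 and H3K27me3 regions of limb. No histone list of ESC was used here, and these marks say nothing of the ESC state.

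SMARCA4 ESC peaks of the members often lay in H3K27me3 regions of the embryo. Of the 25 member peaks, 11 (44.0%, 95% Clopper-Pearson interval 24.4 to 65.1) lay over H3K27me3 of limb or forebrain, against 11.3% of the whole list. For EP300 ESC it was 6 of 14 (42.9%, 17.7 to 71.1), against 19.7%. H3K4me1 lay over 16 of 25 SMARCA4 ESC peaks (64.0%), against 44.6%. Several peaks of a gene can lie in the same region, so these shares rest on fewer than 25 independent places.

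Further genes of the naive network also had more SMARCA4 ESC peaks than the mean of all genes. Of 30 listed, 23 had a point, and their mean was 2.61 SMARCA4 ESC peaks, 2.41 times that of all genes. At least 1 peak was found for 22 of the 23 (61.1% of all placed genes) and at least 3 for 12 (12% of all placed genes). Klf2, a Kruppel-like factor, had 5, and Tbx3, Dppa3 and Fgf4 had 4 each. The Dppa3 point lies in the Nanog territory, so Dppa3 shares peaks with Nanog and is not a separate case. Their EP300 ESC mean was 2.43, 1.24 times that of all genes. In the 7 embryonic SMARCA4 lists they stood at 1.15 to 1.26 times the mean of all genes. Markers of other early lineages were nearer the mean of all genes in SMARCA4 ESC, at 1.11 times for 5 genes of primed epiblast, 0.740 times for 5 of primitive endoderm and 1.11 times for 5 of trophoblast. Of the 5 primed epiblast genes 2 had any such peak, and Otx2 had 5, as many as Klf2. In EP300 ESC these sets stood at 1.62, 0.711 and 0.812 times the mean, so primed epiblast was above the network genes there. Peaks are not RNA, and no cell type was called from them.

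Likeness to the members was taken between a gene's peaks per 10000 list peaks over the 14 FLAG lists and the members' mean profile. Compared genes had at least 5 FLAG peaks in their territory and lay over 200 kb from every member's point. The most alike were Etl4 (Pearson r 0.923), Tm7sf4 (0.918), Trim25 (0.909), Dennd2c (0.909) and AK006443 (0.908), out of 15007 compared. The points of such a correlation share libraries and list lengths, and it is a description only.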

How the data were processed

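Peak lists of 30 of the 34 samples were used: 14 FLAG lists, 6 controls, 7 histone lists and 3 histone inputs. The submitters' processing notes name BWA and mm9, and the peak caller is not given in the sources used here. Per the file headers, 16 deposited tables hold for each peak the count of tags, the read depth at the summit (signal), a score of -10 log10 p, a fold enrichment ratio and a false discovery rate in percent, all the authors' values and used here only within a list. The other 14 deposited lists hold positions and a rank score. Library depth is unknown.

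Starts are printed as file start plus 1. A gene was placed where at least 2 peaks agreed, and 15984 of 18835 gene names were placed. Where peaks agreed on several points, the one with most peaks was used, and of equals the lowest coordinate. Counts have exact Poisson intervals, shares Clopper-Pearson intervals and ratios the binomial split, all at 95% (Python 3.11.15, scipy 1.17.1). A count of 0 was set to 3 in ratios. All 9 members and, for each ESC list, the peak of highest score and any overlapping pair were to be named, as were the further network genes with the most SMARCA4 ESC peaks, of which 1 is not reported here. The placement was tested on simulated data. The members, lists and rules were chosen with earlier results of these data known. Alternatives were territories of 50 and 200 kb, the authors' nearest gene, the better-scored part of each list, lists of equal length, lists without control overlap or without peaks within 1 kb of the point, and each member left out.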

Additional observations from a re-analysis of the deposited data

How the results depend on the processing

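Leaving Nanog out gave 16 SMARCA4 ESC peaks. With every list reduced to its 1414 best peaks, SMARCA4 ESC had 10 peaks, 1 member with at least 3, and 10 times the peaks of face (95% interval 1.42 to 434.0), of heart and of EP300 ESC, which each had 1 peak; the ratio to forebrain was 3.33 (0.858 to 18.8). EP300 ESC had a peak in 1 member there. EP300 ESC had 8 peaks at 50 kb, 23 at 200 kb, 6 by the authors' nearest gene, 6 in the better-scored part and 8 without control overlap. Members with at least 3 EP300 ESC peaks were 1 at 50 kb, by nearest gene and without peaks at the point, 5 at 200 kb, and 0 in the better-scored part, without control overlap and at equal length. At 200 kb, 7 members had at least 3 SMARCA4 ESC peaks and 1 was higher in ESC, and the ratios of SMARCA4 ESC to embryonic lists ran from 1.38 (midbrain) to 2.87 (limb). The shares of all placed genes with at least 1 or 3 peaks were worked out for 100 kb and whole lists only. Counts of members with that many peaks under the alternatives therefore have no share to be read against. By nearest gene, SMARCA4 ESC over EP300 ESC was 6.38, and the ratio to midbrain fell below 1, to 0.932 (0.373 to 2.78). With the face count of 0 set to 3, EP300 ESC over face was 0.924 at 50 kb, 0.693 in the better-scored part and 0.561 without control overlap. These values give no direction. At equal length both counts were too low for a ratio. Overlap was 0% both ways at 50 kb and in the better-scored part, and 35.7% of EP300 ESC peaks by midpoints within 1 kb. Chosen after seeing the data were the further points of Esrrb and Nr0b1 and the restriction to peaks whose nearest gene is the member, which left 6 EP300 ESC peaks. No paired analysis was possible because each condition has 1 library. Library depth is not given, so a list's length limits what its counts can show.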
